A study of Mus musculus with 13 samples.

Results

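The transcripts described here mark the neurons that lie above and below the cortical plate: 7 markers of the marginal zone (Trp73, Lhx1, Lhx5, Calb2, Ndnf, Ebf2 and Ebf3), most of them genes of Cajal-Retzius cells, and 3 markers of the subplate (Cplx3, Nr4a2 and Moxd1). They were chosen by name, with earlier results of these data known. Each was represented by a single probe set, and they make 10 of the 19938 genes tested on the same arrays. RNA came from the cerebral meninges of newborn C57BL6 mice of 1 litter, with 1 Affymetrix Mouse Gene 1.0 ST array per mouse, from 4 mutants (Pdgfc-/-; Pdgfra GFP/+) and 9 controls. The mutants lack both copies of Pdgfc and carry 1 copy of the Pdgfra GFP allele, a null allele that expresses nuclear GFP from the Pdgfra promoter. The controls pooled the remaining genotypes of the litter, which were Pdgfc+/- or Pdgfc+/+ with or without the GFP allele, and Pdgfc-/- without it, and the labels do not say which control had which. The comparison asks whether RNA of these surface and deep pioneer neurons was present at another level in mutant meninges, a tissue in which the study looked for overmigrated neurons.

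Cajal-Retzius cells are among the first neurons of the cortex. They spread beneath the pia in the marginal zone, where they secrete reelin, which guides the layering of later neurons, and they depend on chemokine made by the meninges to stay there. Subplate neurons are another early population and settle beneath the cortical plate, where they receive the first thalamic input and help to guide axons. Marginal zone neurons thus lie next to the meninges, while subplate neurons are separated from them by the whole cortical plate.

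Trp73 is the marker that defines Cajal-Retzius cells best and it has more than 1 start site. The gene of the p53 relative p73, it is read from an upstream start that gives the form with a transactivation domain and from an internal start that gives the shortened form known from Cajal-Retzius cells. RefSeq places these start sites 42702 bases apart, and the platform table assigns several transcripts of the gene to 1 probe set, so the array gives a single Trp73 value for both. The 250 bases upstream of each start are shown here because they are the regulatory sequences that this single value cannot separate. The same stretch of Ebf3 is shown because it holds a match to the core letters bound by its own protein family. All are from RefSeq (GRCm38.p6), on the minus strand and printed 5′ to 3′ of the gene.
Trp73 internal start, chr4:154097174-154097423: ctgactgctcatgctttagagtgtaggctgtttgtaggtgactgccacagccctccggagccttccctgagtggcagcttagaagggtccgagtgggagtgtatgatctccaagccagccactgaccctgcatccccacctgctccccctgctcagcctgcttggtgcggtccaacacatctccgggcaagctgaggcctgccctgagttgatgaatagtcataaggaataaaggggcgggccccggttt
Trp73 upstream start, chr4:154139876-154140125: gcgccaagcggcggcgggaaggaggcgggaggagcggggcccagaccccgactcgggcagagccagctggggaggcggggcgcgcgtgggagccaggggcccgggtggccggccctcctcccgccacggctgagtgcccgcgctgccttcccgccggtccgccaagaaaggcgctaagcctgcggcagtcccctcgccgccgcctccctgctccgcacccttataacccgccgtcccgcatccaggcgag
Ebf3, chr7:137314446-137314695: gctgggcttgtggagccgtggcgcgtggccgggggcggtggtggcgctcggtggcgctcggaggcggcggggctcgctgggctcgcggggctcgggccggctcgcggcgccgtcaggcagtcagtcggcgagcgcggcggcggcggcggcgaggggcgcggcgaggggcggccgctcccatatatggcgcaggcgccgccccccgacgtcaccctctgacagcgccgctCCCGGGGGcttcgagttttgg
Capitals mark a match to the core letters bound by EBF proteins, CCCNNGGG on either strand. Windows were at hand for 6 members (7 windows), and not for Lhx5, Calb2, Ndnf and Ebf2. The EBF letters occurred in 1 of the 7 windows, that of Ebf3, and in 11.82% of all 32851 windows of this length. The LIM-homeodomain letters TAATTA (4.84% of all windows) and the letters bound by Nr4a2 as a monomer, AAAGGTCA (1.34%), occurred in none of the 7. The first 2 motifs read the same on both strands, and with a single match in all no motif overlapped another. A match in letters is a description of the sequence and shows no binding.

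The labels were checked first on the genes of the genotype. Pdgfc had an intensity of 22.8, 27.9, 22.8 and 29.3 in the mutants, against 103 to 275 in 8 controls and 5.88 in control 2 (log2 fold change -1.84, limma adjusted p = 0.00772). Pdgfra was at 788, 1116, 848 and 1561 in mutants and at 1039 to 2255 in controls, with a median of 1921. Its fall (log2 fold change -0.71, limma adjusted p = 0.0276) did not pass when mutant 1, 2 or 3 or control 2 was left out (0.132, 0.0557, 0.112 and 0.0504). Xist, expressed in females, was at 2.24 to 4.77 in all mutants and 4.78, 8.73 and 6.84 in controls 1, 5 and 8, while the other 6 controls were at 536 to 1020, so sex differed between the groups as well. The median intensity of an array was 56.0 to 89.7 in mutants and 44.1 to 89.0 in controls. Marker genes of meningeal fibroblasts, the labelled tissue, were measured in both groups with summed intensities of 22632 to 33871 in mutants and 23606 to 32906 in controls. Of these 10 genes 2 rose and 1 fell, where 8.58% of all genes rose and 6.31% fell.

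Of the 7 marginal zone markers 3 rose in mutant meninges and none fell, while none of the 3 subplate markers passed the test in either direction. Ndnf, Calb2 and Lhx5 rose by 0.97, 0.62 and 0.57 on the log2 scale, and Trp73, Lhx1, Ebf2 and Ebf3 did not pass. A gene is said to rise or fall here at a Benjamini-Hochberg adjusted p under 0.05 in limma, fitted to log2(intensity + 16) over all 19938 genes. By that rule 8.58% of all genes rose and 6.31% fell, against 42.9% (3 of 7) and 0 for the marginal zone markers. The markers were chosen with earlier results known, so these shares are a description. At an unadjusted p under 0.05 the marginal zone count was also 3, and in the subplate Moxd1 passed as lower, where 12.4% of all genes were higher and 11.2% lower. By the methods' t-test on the same values Ndnf, Calb2 and Lhx5 also passed after adjustment (0.00352, 0.0121 and 0.0222). The methods also set a 2-fold limit: on the log2(intensity + 16) scale none of the 10 passed it, while Ndnf lay at it, with a ratio of mean intensities of 2.02 and a log2 fold change of 1.04 with a constant of 1 in place of 16. The constant 16 makes fold changes of dim genes smaller than their ratio of intensities, so the ratio of mean intensities, mutant over control, is given too, except for Lhx5. Group differences in bulk tissue do not tell fewer cells of a type from less RNA per cell.

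Ndnf, which encodes a secreted neurotrophic factor of Cajal-Retzius cells and of some layer 1 interneurons, was the marker that separated the groups. Its intensity was 279.9, 312, 282 and 369 in the 4 mutants, against a lowest value of 90.2, a median of 151 and a highest of 214 in the 9 controls. Control meninges thus held Ndnf RNA too, and which cells made it in either group was not tested. Every mutant lay above every control, a separation seen in that direction for 6.40% of all genes. Mutants averaged 311 ± 41.5 (SD, n = 4) and controls 154 ± 37.4 (SD, n = 9), a ratio of 2.02, with a log2 fold change of 0.97 (standard error 0.17, limma adjusted p = 3.5e-04). The call was kept in every alternative and without any single mouse (adjusted p between 1.44e-05 and 0.00711). Controls 1, 5 and 8, with low Xist like the mutants, had 90.2, 137 and 181.

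Calb2 encodes calretinin, a calcium-binding protein of Cajal-Retzius cells that some interneurons also make. It was at 59.8, 55.5, 30.9 and 49.9 in the mutants, and at 15.8 to 35.4 in the controls with a median of 25.6. Mutant 3 lay within the range of the controls, and the other 3 mutants above it. Mutants averaged 49.0 ± 12.7 (SD, n = 4) and controls 26.0 ± 5.74 (SD, n = 9), a ratio of 1.89 and a log2 fold change of 0.62 (standard error 0.15, limma adjusted p = 0.00567). With the Xist level as a covariate its adjusted p was 0.0520 at a log2 fold change of 0.65, and with unequal variances it was 0.147.

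The LIM-homeodomain genes Lhx1 and Lhx5, paralogous transcription factors of Cajal-Retzius cells and their sources, gave different calls. Lhx5 was at 35.9, 28.0, 30.05 and 24.3 in mutants, and at 9.41 to 30.5 in controls with a median of 13.95. All mutants lay above 8 of the controls, while control 4, at 30.5, lay among the mutants and apart from the next control at 17.0. In 7 of the 9 controls and none of the mutants Lhx5 was below the median of olfactory receptor genes on its own array, taken as a level near background, so the size of its difference is not well measured. The log2 fold change of Lhx5 was 0.57 (standard error 0.15, limma adjusted p = 0.0122). It was 0.50 without mutant 1 (adjusted p = 0.0595), 0.57 with the Xist level as a covariate (0.104) and 0.45 when the 4 dimmest arrays were left out (0.0547). Lhx1 was at 44.5, 32.3, 23.8 and 29.2 in mutants and at 16.3 to 45.4 in controls with a median of 30.8. The groups of Lhx1 overlapped throughout, with a ratio of 1.06 and a log2 fold change of 0.07 (95% interval -0.29 to 0.43, limma adjusted p = 0.957). Whether the changes of the paralogs differed from each other was not tested.

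Trp73 had an intensity of 88.6, 42.6, 48.7 and 66.1 in the mutants. In the controls it ranged from 13.2 in control 6 to 67.5 in control 4, with a median of 41.5. Only mutant 1 lay above all controls. The ratio was 1.39, and the log2 fold change of 0.39 had a 95% interval from -0.09 to 0.86 (limma adjusted p = 0.355).

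Ebf2 and Ebf3 encode transcription factors of the early B-cell factor family, which Cajal-Retzius cells share with mesenchymal cells. Ebf2 was at 62.5, 36.8, 37.3 and 43.4 in mutants and 24.2 to 54.8 in controls, with a control median of 41.1. Ebf3 was at 102, 77.6, 70.1 and 82.4 in mutants and 45.0 to 84.5 in controls, with a control median of 72.2. For both genes mutant 1 alone lay above all controls. The log2 fold changes were 0.13 for Ebf2 (95% interval -0.19 to 0.45) and 0.26 for Ebf3 (-0.05 to 0.57), with limma adjusted p = 0.810 and 0.345 and ratios of 1.13 and 1.23.

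**Figure D1:**
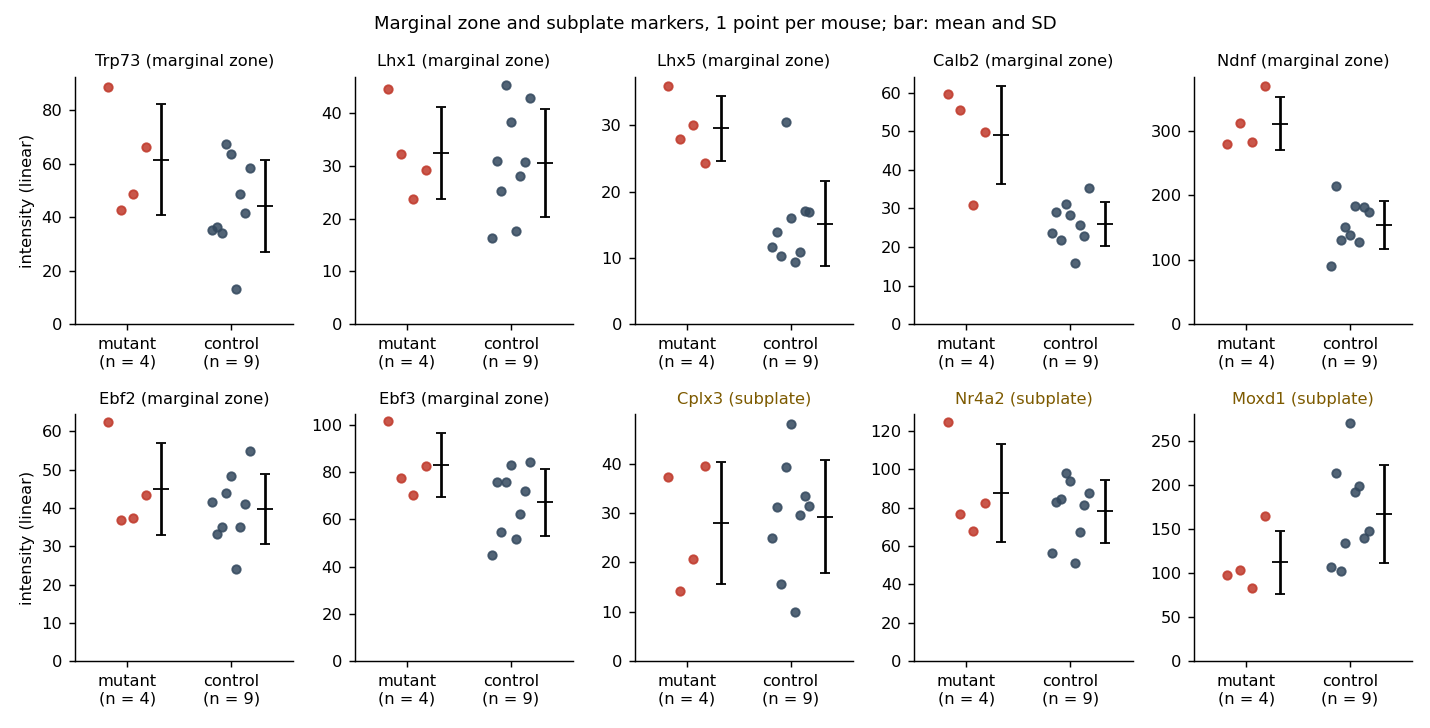
Intensity of the 10 markers on a linear scale, 1 point per mouse; bars beside the points mark mean and SD (mutants, n = 4; controls, n = 9). For Ndnf the mutants, at 279.9 to 369, lie above all controls. For Moxd1 the mutants, at 83.1 to 165, lie below the range of the controls (103 to 271) or within it.

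Among the subplate markers, Moxd1 showed the largest difference. It encodes a monooxygenase related to dopamine beta-hydroxylase and was at 98.2, 104, 83.1 and 165 in mutants, and at 103 to 271 in controls with a median of 148. Mutants 1 and 3 lay below all controls and mutants 2 and 4 within their range. The ratio was 0.671 and the log2 fold change -0.50 (95% interval -0.95 to -0.05) with an unadjusted p of 0.0321 and an adjusted p of 0.153 in limma. It passed the test with each array centred on its median (-0.59, adjusted p = 0.0276) or after quantile normalization (-0.60, 0.0269).

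Nr4a2, the gene of the orphan nuclear receptor Nurr1, was at 125, 76.4, 67.6 and 82.2 in mutants and at 51.2 to 98.0 in controls, with a median of 82.8. Cplx3, which encodes a complexin of the synaptic vesicle release machinery, was at 37.2, 14.3, 20.8 and 39.5 in mutants and at 9.92 to 48.0 in controls, with a median of 31.3. Both genes overlapped between the groups, except that mutant 1 had the highest Nr4a2 value. Their log2 fold changes were 0.13 (95% interval -0.21 to 0.48) and -0.04 (-0.48 to 0.40), with limma adjusted p = 0.827 and 0.987 and ratios of 1.12 and 0.954.

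Set side by side within each array, the marginal zone class was higher relative to the subplate class in mutants. The median log2 fold change was 0.39 for the 7 marginal zone markers and -0.04 for the 3 subplate markers, where the median of all genes was 0.0043. Centring every array on reference genes gave a subplate median of 0.11, and on fibroblast genes 0.10, and the marginal zone median was then 0.54 and 0.53. With arrays centred on their own median the marginal zone and subplate medians were 0.29 and -0.14, after quantile normalization 0.31 and -0.11, with array weights 0.092 and -0.38, and without mutant 1 0.23 and -0.15. Within a mouse, the mean log2 value of the subplate markers minus that of the marginal zone markers was 0.004, -0.12, -0.04 and 0.30 in mutants 1 to 4, and 0.37 to 0.92 in the controls. Such a difference takes out any shift that all genes of an array share on the log2 scale. The correlations of the markers with array brightness were unequal, as given below, so brightness need not cancel in it. The mean difference was 0.04 ± 0.19 for mutants (SD, n = 4) against 0.60 ± 0.17 for controls (SD, n = 9), and no mutant reached a control. Without Ndnf and Moxd1, the members with the largest changes of their class, it was -0.17 to 0.25 in mutants and 0.19 to 0.52 in controls, and the groups overlapped. These are descriptions with no test, since a class holds few genes.

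Array brightness moved with most of the markers. Olfactory receptor genes, which are not known to be expressed in meninges, gave a measure of it: the median intensity of 1015 such genes was 28.2, 13.9, 12.0 and 19.8 in mutants and 8.49 to 26.5 in controls, and none of them rose or fell in limma. Mutant 1 was the brightest array by this measure, and it held the highest value of 6 of the 10 markers (Trp73, Lhx5, Calb2, Ebf2, Ebf3 and Nr4a2). Over the 13 arrays the log2 values of Trp73, Lhx1, Ebf2, Ebf3, Cplx3 and Nr4a2, the markers with no call but Moxd1, had a Pearson correlation of 0.78 to 0.90 with the median of their array, and of 0.77 to 0.91 once group means were removed. It was 0.56 for Lhx5, 0.64 for Calb2, 0.31 for Ndnf and 0.20 for Moxd1, and with group means removed 0.66, 0.83, 0.31 and 0.35. Among the 3 genes most like each marker, 4 of 30 were olfactory receptor genes, which made 1015 of the 19938 genes tested. For Ebf2 the top 3 by Pearson correlation of log2 values were Olfr1295 (r = 0.95), Olfr1104 (0.95) and Slc22a13 (0.94), for Trp73 they were Lrrc15 (0.97), Olfr1314 (0.96) and Mrgpra3 (0.96), and for Cplx3 Cfap61, Olfr1289 and Pinlyp (each 0.97). For Lhx1 they were Tpbgl, Gjd3 and Muc5b (each 0.98), for Nr4a2 Ifng (0.97), Mir99b (0.96) and Serpina12 (0.96), and for Ebf3 Tmem63c (0.98), Porcn (0.97) and Matk (0.96). All points of these correlations share array brightness, and they are given as descriptions.

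None of the genes most like Ndnf, Calb2, Lhx5 or Moxd1 was an olfactory receptor gene, which was also so for Lhx1, Nr4a2 and Ebf3. Such genes are a small part of all genes, so their absence does not set a marker apart. Ndnf was most like Atxn7l3 (0.98), Lrrc8b (0.97) and Pik3r1 (0.97), and Calb2 most like Chchd6 (0.98), Eif5a2 (0.97) and Srcin1 (0.97). Lhx5 was most like Nptx2 (0.93), the gene of a neuronal pentraxin, then Ssx9 (0.92) and Xylt1 (0.91). Moxd1 was most like Gprc5a (0.90), Npr3 (0.88) and Prelp (0.87), the last a proteoglycan gene of connective tissue. Group means were left in when the most similar genes were chosen, so genes that differ between the groups share that difference too. Removing group means gave 0.90 to 0.93 for Ndnf and 0.92 to 0.94 for Calb2. It gave 0.78 to 0.82 for Lhx5 and 0.88 to 0.94 for Moxd1.

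Each mutant was set beside the control nearest to it in the olfactory receptor median. The marginal zone class mean, on the log2 scale, was 6.56 in mutant 1 and 6.18 in control 4, 6.24 in mutant 2 and 5.61 in control 1, 6.11 in mutant 3 and 5.71 in control 3, and 6.33 in mutant 4 and 5.82 in control 7. The subplate class mean was 6.57 in mutant 1 and 6.62 in control 4, 6.12 in mutant 2 and 6.16 in control 1, 6.07 in mutant 3 and 6.18 in control 3, and 6.64 in mutant 4 and 6.55 in control 7. The marginal zone class was thus higher in the mutant of all 4 pairs, and the subplate class lower in 3 and higher in 1. The pairs are a description on a brightness measure chosen after seeing the data. The marginal zone mean holds Ndnf, Calb2 and Lhx5, already called from the same values. The subplate differences were small beside the SD of that mean (0.29 in mutants, 0.28 in controls). Controls 3, 4 and 7 had high Xist (1020, 880 and 536), unlike the mutants, so these pairs differed in sex too. With each array centred on the olfactory receptor median, Ndnf, Calb2 and Lhx5 rose (log2 fold changes of 0.94, 0.59 and 0.53, limma adjusted p = 0.00380, 0.00124 and 0.00599) and no other member passed, an alternative chosen after seeing the data.

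**Figure D2:**
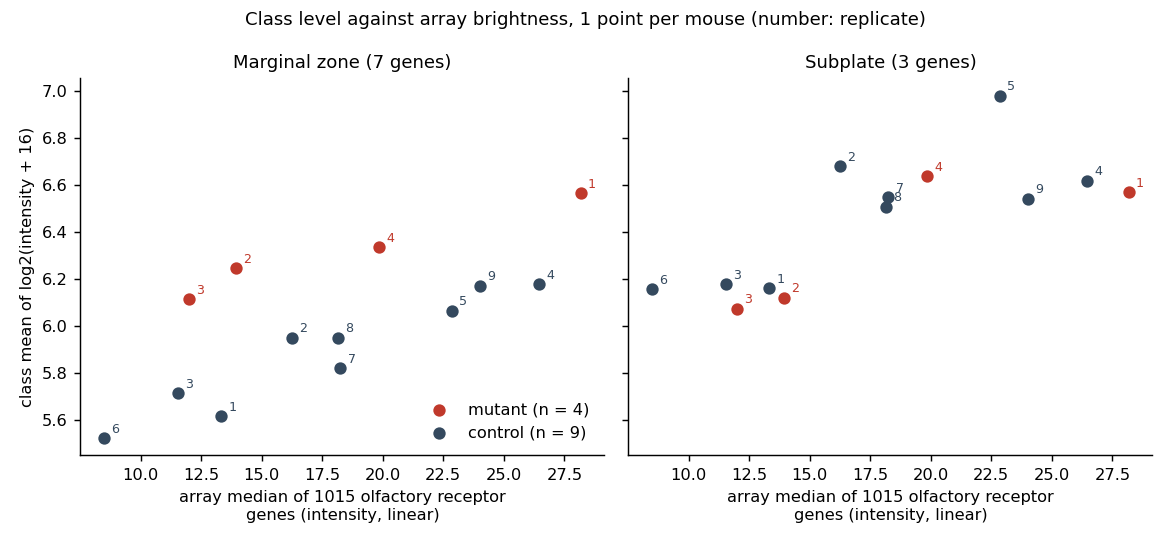
Mean log2(intensity + 16) of the 7 marginal zone markers and the 3 subplate markers in each mouse, against the median intensity of 1015 olfactory receptor genes on the same array, with mutants and controls in separate colours. Both classes are higher on brighter arrays, and the 4 mutants lie above the controls of like brightness in the marginal zone panel and lie among or close to them in the subplate panel.

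Among other genes known from Cajal-Retzius cells, Reln, Cxcr4 and Cacna2d2 had larger fold changes than any of the 7 markers. Of 9 such genes 4 rose and 1 fell, where 8.58% of all genes rose and 6.31% fell. Their median log2 fold change was 0.30. Reln, which encodes reelin, was at 1806, 1729.9, 1697 and 2016 in mutants and at 73.4 to 193 in controls with a median of 104, a log2 fold change of 3.79 (standard error 0.21, limma adjusted p = 2.33e-10). Reln is not confined to Cajal-Retzius cells, since cortical interneurons make it too. Cxcr4, the receptor by which these cells and interneurons follow meningeal chemokine, was at 932 to 1665 in mutants and 260 to 503 in controls (log2 fold change 1.89, limma adjusted p = 2.02e-07). Cacna2d2, a calcium channel subunit gene, was at 111 to 148 in mutants and 24.0 to 65.2 in controls (1.23, 1.74e-05). Car10, a carbonic anhydrase relative, also rose (0.59, 0.0228), but did not pass when mutant 1 or 4 was left out (0.129 and 0.0836), nor by the methods' t-test (0.0519), with unequal variances (0.203), with array weights (0.104) or with Xist as a covariate (0.187). Ebf1, which mesenchymal and vascular cells express as well, fell by 0.62 on the log2 scale (0.0356) and did not pass when mutant 2 or 3 or control 2 or 8 was left out (0.168, 0.0928, 0.0599 and 0.0579) or under several other settings. Nhlh1, Nhlh2, Barhl2 and Dmrt3, transcription factor genes of Cajal-Retzius cells or their sources, had log2 fold changes of 0.08, 0.30, 0.10 and -0.02 and did not pass.

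Other genes known from the subplate went both ways. Of 8 genes 2 rose and 2 fell, where 8.58% of all genes rose and 6.31% fell. Their median log2 fold change was 0.12 (0.02 for arrays centred on their median, 0.27 on reference genes). Tmem178, which encodes a membrane protein, was at 5224 to 7679 in mutants and 862 to 1281 in controls (log2 fold change 2.73, limma adjusted p = 8.72e-11). Sox5, a transcription factor gene of subplate and deep layer neurons, was at 235 to 280.5 in mutants and 48.2 to 86.2 in controls (1.74, 1.28e-08). The genes that fell were Ccn2, the gene of connective tissue growth factor, at 306 to 547 in mutants and 673 to 1342 in controls (-1.27, 1.35e-05), and Nxph4, a neurexophilin gene, at 48.7 to 77.0 in mutants and 82.1 to 153 in controls (-0.80, 5.64e-04). Ccn2 is also a gene of fibroblasts and vessels. Kcnab1, Cdh18, Abca8a and Lpar1 had log2 fold changes of 0.36, 0.21, 0.03 and -0.10 and did not pass.

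**Figure D3:**
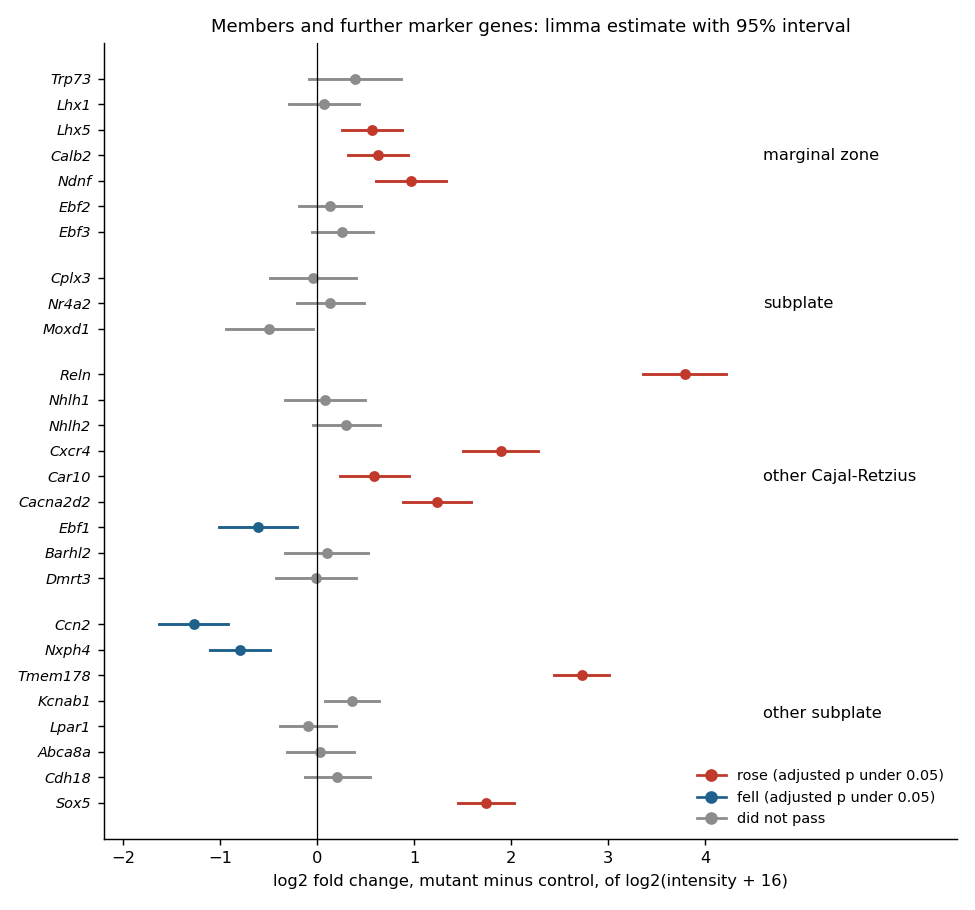
Log2 fold change, mutant minus control, of the 10 markers and of the 17 further Cajal-Retzius and subplate genes, with the 95% interval of the limma fit. Red marks genes that rose, blue genes that fell and grey genes that did not pass. The members lie between -0.50 and 0.97, while Reln lies at 3.79 and Ccn2 at -1.27.

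Genes of other cortical neurons gave a scale for these values, where 8.58% of all genes rose and 6.31% fell. All 15 pan-neuronal genes rose, with a median log2 fold change of 3.04, as did 9 of 10 interneuron genes (median 3.30), 5 of 7 deep layer genes (1.24) and 4 of 6 upper layer genes (1.12). Of 7 genes of cortical progenitors 1 rose (median 0.31), and the 7 marginal zone markers had their median at 0.39. The summed intensity of the interneuron genes was 7142 to 9030.5 in mutants and 444 to 1232 in controls, and that of the pan-neuronal genes 15421 to 18896 in mutants and 1731 to 4631 in controls. Their part in the rises of Ndnf, Calb2 and Lhx5 was not tested. No difference between these lists was tested either, and the members of a list share arrays.

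Vessel and immune genes moved the other way, where 6.31% of all genes fell and 8.58% rose. Of 9 endothelial genes 6 fell and none rose (median -0.83), with summed intensities of 5117 to 6688 in mutants and 7183 to 15179 in controls. Of 7 genes of macrophages and microglia 6 fell and none rose (median -0.96), and of 8 mural genes none passed (median -0.10). Choroid plexus genes (1 of 6 rose and 1 fell) summed to 3344 in mutant 1, of which Ttr, the transthyretin gene, made 2841, and to 505 to 729 in the other 3 mutants, against 289.9 to 656 in controls. None of 3 erythroid genes passed, and of 8 reference genes of general use 2 fell. Their part in the values of the 10 markers was not tested.

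**Figure D4:**
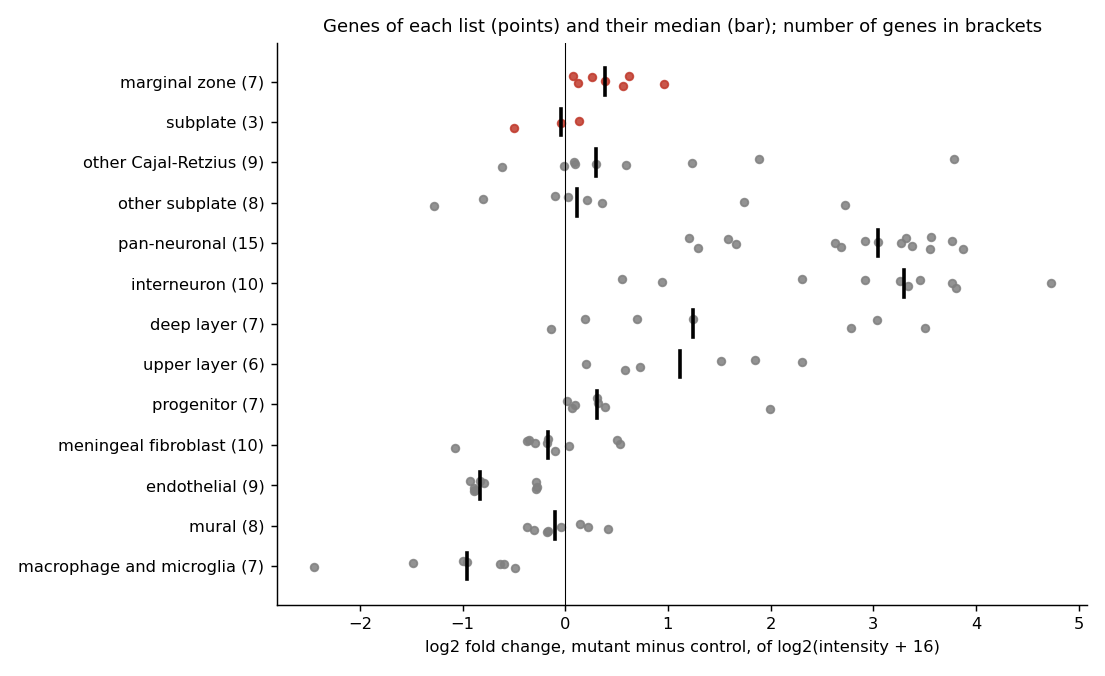
Log2 fold change, mutant minus control, of each gene (points) and the median (bar) in 13 lists, with the 10 markers in red. The marginal zone markers have a median of 0.39 and the subplate markers of -0.04, against 3.04 for pan-neuronal and 3.30 for interneuron genes.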

How the data were processed

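The authors summarised the arrays with PLIER, which gives 1 value per probe set, and deposited intensities on a linear scale for 35557 probe sets. The version and any scaling between arrays are not given in the sources used here. Array medians differ, and dim transcripts move with them. Arrays have no read depth, so their number limits the precision. Of the probe sets 21789 carry 1 gene symbol in the platform table, 1621 several and 12147 none, and the brightest of a gene was kept, which gave 19938 genes. Mutants and controls were compared on log2(intensity + 16) by two-sided limma 3.58.1 (lmFit and eBayes, R 4.3.3), and p-values were adjusted by Benjamini-Hochberg over the 19938 genes. The methods name a t-test and a 2-fold limit. The limma step was tested on simulated data with independent noise for each gene and array, which leaves out the array brightness that genes share. The members and lists were chosen with earlier results of these data known. Named genes are the members, the 3 genes most like each, those of the 2 further marker lists, and checks of the labels. Figures were drawn with matplotlib 3.10.9. Alternatives covered the test, variances, scaling, constant, dim genes, probe sets, Xist, replicate number and each mouse. Replicate numbers did not mark mice that deviated together (correlations of deviations from the group means -0.34, 0.16, 0.31 and -0.09), and were therefore not taken to pair mice.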

Additional observations from a re-analysis of the deposited data

Results flagged for a closer look

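Lhx5 in control 4, at an intensity of 30.5, stood apart from the other 8 controls at 9.41 to 17.0, by the gap to its nearest neighbour over the whole range (0.64). Control 4 also had the brightest olfactory receptor genes among the controls, at a median of 26.5. Without control 4 the log2 fold change of Lhx5 was 0.64 (limma adjusted p = 0.00152). The test was made on 20 groups of values, of which chance flags about 1 in 20.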

How the results depend on the processing

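Ndnf kept its call in every alternative, with log2 fold changes of 0.87 to 1.16. The number of marginal zone markers that rose was 1 in place of 3 without the dimmest 25% of genes, where 4 of the 7 were left, without the dimmest 50%, where 1 was left, and when the Xist level was a covariate. Leaving out each mouse gave 2 to 3. Moxd1 alone made the count of subplate markers that fell 1 in place of 0 after quantile normalization or with arrays centred on their median. The class medians were 0.092 (marginal zone) and -0.38 (subplate) with array weights, and 0.97 and -0.50, a difference of -1.46, without the dimmest 50% of genes. Leaving out each mouse gave 0.23 to 0.51, -0.17 to 0.12 and, for the difference, -0.52 to -0.38.

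Of all genes 1710 rose and 1258 fell. With unequal variances the numbers were 1139 and 400. Centred on reference genes 3508 rose, and centred on fibroblast genes 3098. With array weights 2023 fell, centred on the array median 2862, quantile normalized 3769 and with Xist 605. Leaving out each mouse gave 1331 to 1904 that rose and 777 to 1490 that fell, with 778 without mutant 1 and 777 without mutant 3. The median of all genes moved to 0.16 (reference genes), 0.15 (fibroblast genes) and -0.11 (array weights).

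With the replicate number as a block, 2 marginal zone markers rose, Ndnf at 1.06 and Calb2 at 0.60, Lhx5 lost its call (0.52, limma adjusted p = 0.184), as did Car10, Ebf1, Pdgfc and Pdgfra, and over all genes 1284 rose and 545 fell. Controls whose replicate number no mutant shares add nothing to the group difference in this fit. It therefore rests on fewer controls than the main one, and a lost call can come from that alone.

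Log2 fold changes near 0 changed sign without passing the test. With array weights Lhx1 was at -0.085, Ebf2 at -0.051 and Nr4a2 at -0.049. Lhx1 was at -0.027 centred on the array median and -0.021 without the 4 dimmest arrays, and Lhx1 and Nr4a2 were at -0.042 and -0.024 without mutant 1. Cplx3 was at 0.11 and 0.10 centred on reference and fibroblast genes, at 0.12 and 0.028 without mutant 2 or 3, and at 0.025 without control 5. The cause was not tested. The 4-array and olfactory receptor alternatives were chosen after seeing the data. All members but Ndnf and Moxd1 lay in the dimmest 50% of all genes, where signal near background limits what the arrays can show.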
